A study of Homo sapiens with 17 samples.

Results

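CDC6, MCM6, GINS1, PRIM1, POLA1, DTL, HELLS, FAM111B, MCM8 and XRCC2 are 10 human genes grouped here under DNA replication licensing and the replication fork. They were followed over the 17 Affymetrix arrays of a study of 2 compounds in breast cells. Each was measured by 1 probe set, so they are 10 of the 17687 genes with a probe set of their own. They were selected on their log2 signals in MDA-MB-231 cells, where an earlier look at these same arrays had shown all 10 lower than in solvent after DZH_2 at IC20, DZH_2 at IC50 and Maraviroc at IC50. In these 3 comparisons their values are therefore given as a description, with no test, and tests are given for 84 other replication genes and for Maraviroc at IC20.

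A mesenchymal line of triple-negative breast cancer, MDA-MB-231, gave 13 arrays: 2 of Maraviroc IC20, 2 of Maraviroc IC50, 2 of DZH_2 IC20, 2 of DZH_2 IC50, 2 of DMSO, 2 of ethanol and 1 of untreated cells. Arrays titled MCF10, a non-tumorigenic mammary epithelial line, came 1 to a condition: untreated cells, DMSO, DZH_2 IC20 and DZH_2 IC50. Maraviroc is a drug used against HIV, and DZH_2 is known here by its code name alone. The cells grew for 24 h after seeding and had 48 h of treatment. IC20 and IC50 name the concentrations that inhibit by 20% and by 50%, and no source used here gives those concentrations. DMSO was the control for DZH_2 and ethanol the control for Maraviroc. No label says whether the 2 arrays of a group came from separate cultures, so p-values here rest on array-to-array spread that could be technical.

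DNA replication is licensed in G1, when ORC, CDC6 and CDT1 load rings of MCM2 to MCM7 onto origins. In S phase CDC45 and the GINS complex join the ring to form the working helicase, and DNA polymerase alpha with its primase lays down the primers that the other polymerases extend. Many of these genes are transcribed at the G1/S boundary under E2F transcription factors, so that their RNA is scarce in cells that have left the cycle. In bulk RNA such as this, fewer cells in S phase and less RNA per cell cannot be told apart.

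Promoters are shown first because the 10 genes were lower together, and E2F and NF-Y are known to bind words such as TTTGGCGC and CCAAT, in that order, in promoters of cell cycle genes. RefSeq promoter entries (build GRCh38.p14) matched 9 of the 10 genes, with FAM111B unmatched, and the 250 bases before each start were read on the gene's own strand. The words searched on both strands were the E2F words TTTGGCGC, TTTCCCGC, TTTCGCGC and TTTGCCGC, the CCAAT box CCAAT, the cell cycle homology region TTTGAA and the word GGCGG, and overlapping matches were each counted. Below, 5 promoters are printed: the 4 with an E2F word, and that of CDC6, which has no such word but 3 CCAAT boxes. Capitals mark E2F words and CCAAT boxes on either strand. The MCM6 window is chr2:135876444-135876693 on the minus strand. That of HELLS is chr10:94545538-94545787, that of DTL chr1:212035498-212035747, that of POLA1 chrX:24693668-24693917 and that of CDC6 chr17:40287629-40287878, all on the plus strand.
MCM6: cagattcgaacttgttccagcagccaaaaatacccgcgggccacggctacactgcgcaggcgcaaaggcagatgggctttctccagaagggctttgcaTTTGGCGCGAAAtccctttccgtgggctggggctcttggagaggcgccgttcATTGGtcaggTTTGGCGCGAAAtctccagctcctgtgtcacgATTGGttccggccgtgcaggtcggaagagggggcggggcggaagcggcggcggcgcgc
HELLS: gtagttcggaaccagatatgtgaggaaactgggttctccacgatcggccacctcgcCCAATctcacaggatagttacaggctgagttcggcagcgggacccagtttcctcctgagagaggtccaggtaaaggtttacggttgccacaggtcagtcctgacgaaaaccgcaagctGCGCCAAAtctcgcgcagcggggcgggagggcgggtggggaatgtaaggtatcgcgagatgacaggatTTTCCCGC
DTL: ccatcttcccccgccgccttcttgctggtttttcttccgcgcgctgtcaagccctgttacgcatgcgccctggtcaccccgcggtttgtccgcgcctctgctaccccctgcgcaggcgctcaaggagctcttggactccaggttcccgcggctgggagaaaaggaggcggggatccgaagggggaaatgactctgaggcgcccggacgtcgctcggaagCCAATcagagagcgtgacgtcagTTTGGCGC
POLA1: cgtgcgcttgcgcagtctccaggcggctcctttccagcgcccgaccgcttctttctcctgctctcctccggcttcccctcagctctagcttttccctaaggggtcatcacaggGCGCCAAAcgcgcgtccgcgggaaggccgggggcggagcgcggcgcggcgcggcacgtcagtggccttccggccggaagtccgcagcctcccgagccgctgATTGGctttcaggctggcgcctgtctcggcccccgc
CDC6: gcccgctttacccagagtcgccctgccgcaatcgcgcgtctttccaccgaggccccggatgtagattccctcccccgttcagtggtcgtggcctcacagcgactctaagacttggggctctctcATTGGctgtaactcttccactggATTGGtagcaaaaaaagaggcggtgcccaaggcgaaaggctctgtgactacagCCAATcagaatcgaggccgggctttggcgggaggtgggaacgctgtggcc
MCM6 holds 2 pairs of overlapping E2F words, each TTTGGCGC run into GCGCGAAA, which begin 152 and 90 bases before the start, and HELLS holds GCGCCAAA 76 bases and TTTCCCGC 8 bases before it. An E2F word lay in 4 of 9 of these promoters (44.4%), in 19.3% of 109 starts of the other replication genes, in 4% of those of G2/M and mitosis and in 2.79% of all 35116 starts. CCAAT lay in 8 of 9 (88.9%), all but XRCC2, in 47.7% of starts of the other replication genes, in 72% of those of G2/M and mitosis and in 32% of all starts. The word TTTGAA lay in 0 of 9, in 4.59% of starts of the other replication genes, in 40% of 25 starts of the genes of G2/M and mitosis and in 13.3% of all starts. GGCGG lay in 9 of 9, in 86.2% of starts of the other replication genes, in 96% of those of G2/M and mitosis and in 56% of all starts. Over the 20090 starts of measured genes the shares were 3.41% for E2F words, 32.8% for CCAAT, 10.9% for TTTGAA and 69% for GGCGG. A match is a description of these letters and not of binding. Only exact words were counted, so a promoter with no match, such as that of CDC6 for E2F, may hold near forms of a word.

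All 10 genes had signal above the negative controls in MDA-MB-231 cells without compound. Over the 5 control arrays (DMSO, ethanol and untreated), CDC6 had a median log2 signal of 11.54 (range 11.03 to 11.63) and MCM8 of 11.11 (10.43 to 11.70). DTL had a median of 10.90 (10.61 to 11) and HELLS of 10.30 (10.07 to 11.14). PRIM1 (median 9.93), GINS1 (9.84), POLA1 (9.35), XRCC2 (9.10) and MCM6 (9.08) followed, and FAM111B had 7.53 (7.28 to 8.36). Signals of different probe sets are not on one scale, so this is no order of expression. As a guide to the lower limit, the 75th percentile over 612 negative controls lay between 5.76 and 6.13 in 6 of the 7 MDA-MB-231 groups and at 6.44 in the Maraviroc IC50 group. A group mean under it is called near the negative controls below.

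**Figure D1:**
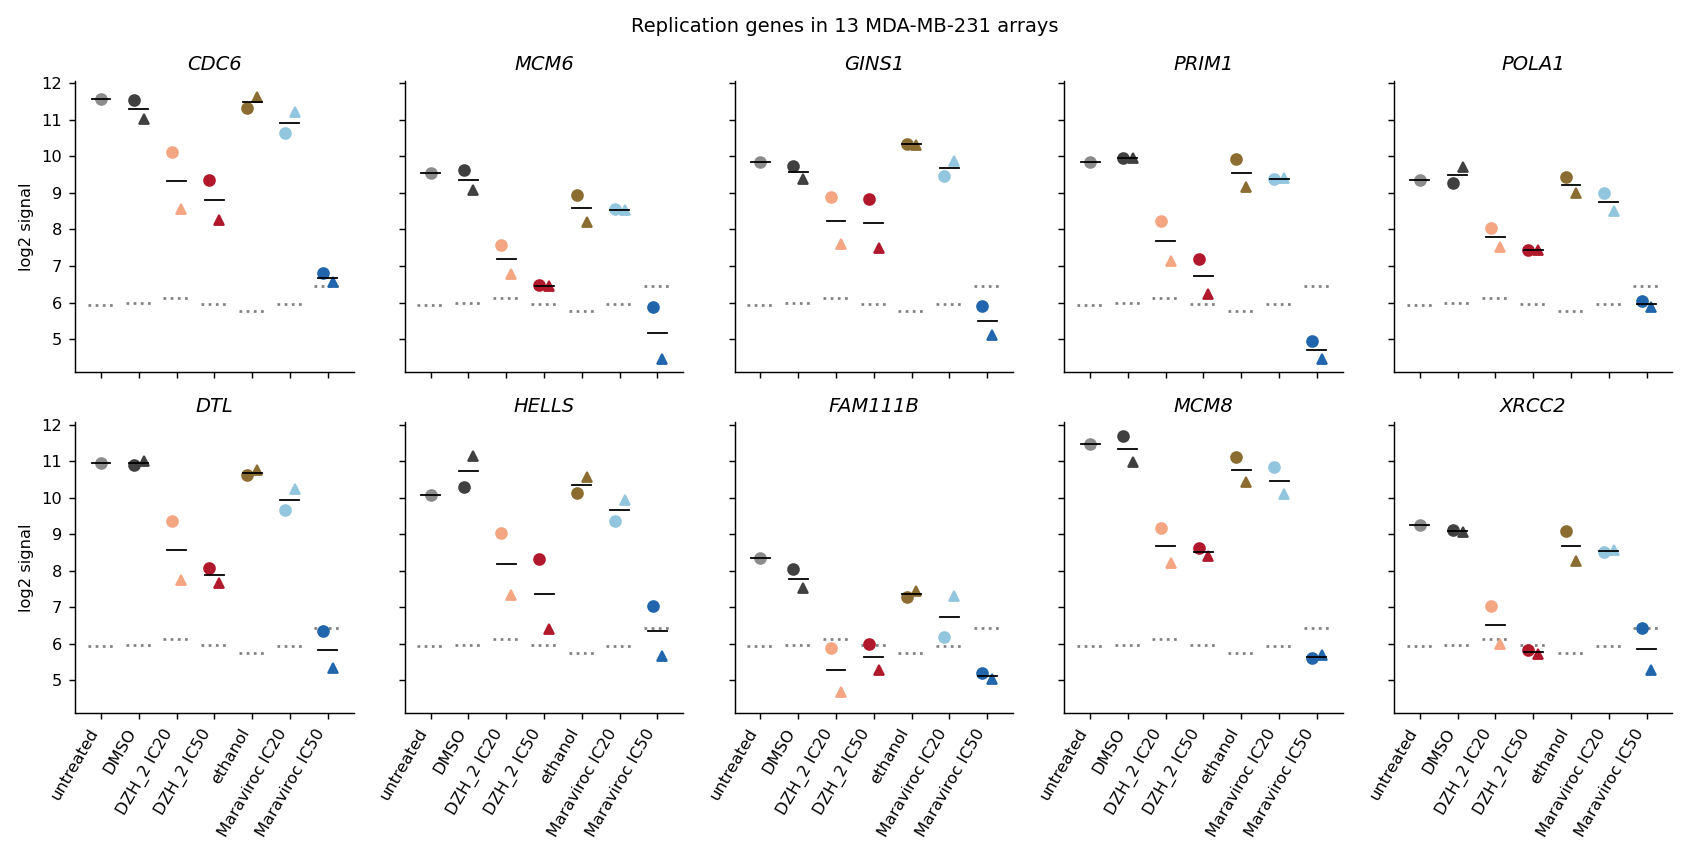
Log2 signal of the 10 genes (vertical axis) in the 13 MDA-MB-231 arrays, by group (horizontal axis): circles are replicate 1, triangles replicate 2, black lines group means, and dotted lines the 75th percentile over negative controls in that group. All 10 genes lie lower in the DZH_2 groups than in DMSO and, with Maraviroc, lower at IC50 than in ethanol, where 9 of the 10 means are under the dotted line of 6.44.

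CDC6 (Entrez 990), the ATPase that with ORC and CDT1 loads the MCM ring, had log2 signals of 11.54 and 11.03 in DMSO, 10.11 and 8.57 in DZH_2 IC20, and 9.35 and 8.25 in DZH_2 IC50. With Maraviroc it had 11.33 and 11.63 in ethanol, 10.63 and 11.21 at IC20, and 6.81 and 6.56 at IC50. The DZH_2 arrays lay below both DMSO arrays, and the Maraviroc IC50 arrays lay far below the rest. Its mean stayed above the negative controls in every MDA-MB-231 group, the only one of the 10 genes for which that held. MCM6 (Entrez 4175), a subunit of the MCM2 to MCM7 ring, read 9.63 and 9.08 in DMSO, 7.58 and 6.79 in DZH_2 IC20, and 6.49 and 6.44 in DZH_2 IC50. Its Maraviroc series read 8.94 and 8.21 in ethanol, 8.55 and 8.53 at IC20, and 5.88 and 4.46 at IC50. MCM6 was thus lower at IC50 than at IC20 of DZH_2 in both arrays, and its Maraviroc IC20 arrays lay between the 2 ethanol arrays.

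GINS1 (Entrez 9837), a subunit of the GINS complex of the helicase, had the smallest difference of the 10 genes under DZH_2. It read 9.74 and 9.39 in DMSO, 8.90 and 7.59 in DZH_2 IC20, and 8.83 and 7.50 in DZH_2 IC50, so that the 2 doses nearly coincided. In the Maraviroc series it read 10.35 and 10.31 in ethanol, 9.47 and 9.87 at IC20, and 5.90 and 5.11 at IC50.

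PRIM1 (Entrez 5557), the catalytic subunit of primase, read 9.96 and 9.96 in DMSO, 8.22 and 7.15 in DZH_2 IC20, and 7.20 and 6.24 in DZH_2 IC50. It read 9.93 and 9.16 in ethanol, 9.37 and 9.41 in Maraviroc IC20, and 4.96 and 4.46 in Maraviroc IC50. No treated array of DZH_2 or of Maraviroc IC50 reached its solvent arrays. POLA1 (Entrez 5422), the catalytic subunit of DNA polymerase alpha, read 9.27 and 9.71 in DMSO, 8.04 and 7.53 in DZH_2 IC20, and 7.44 and 7.43 in DZH_2 IC50. In the Maraviroc series the signals were 9.43 and 8.99 in ethanol, 9.01 and 8.51 at IC20, and 6.04 and 5.87 at IC50. POLA1 had the smallest standard error of the 10 genes, 0.30 for a difference of 2 groups.

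DTL (Entrez 51514), the receptor through which the CRL4 ubiquitin ligase removes CDT1 at replicating chromatin, read 10.90 and 11 in DMSO, 9.37 and 7.75 in DZH_2 IC20, and 8.09 and 7.66 in DZH_2 IC50. Its signals were 10.61 and 10.75 in ethanol, 9.67 and 10.23 in Maraviroc IC20, and 6.35 and 5.34 in Maraviroc IC50. HELLS (Entrez 3070), a chromatin remodeller of the SNF2 family needed for DNA methylation, read 10.30 and 11.14 in DMSO, 9.03 and 7.35 in DZH_2 IC20, and 8.31 and 6.40 in DZH_2 IC50. Its arrays spread most, with the largest standard error of the 10 genes, 0.65. Under Maraviroc it read 10.13 and 10.58 in ethanol, 9.36 and 9.95 at IC20, and 7.03 and 5.67 at IC50. FAM111B (Entrez 374393), a serine protease related to FAM111A, which acts at replication forks, read 8.04 and 7.53 in DMSO, 5.89 and 4.67 in DZH_2 IC20, and 6.01 and 5.28 in DZH_2 IC50, with both DZH_2 means near the negative controls. In ethanol it read 7.28 and 7.44, in Maraviroc IC20 6.18 and 7.30, and in Maraviroc IC50 5.20 and 5.03.

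MCM8 (Entrez 84515), which with MCM9 forms a helicase of homologous recombination and is no part of the MCM2 to MCM7 ring, read 11.70 and 10.99 in DMSO, 9.17 and 8.21 in DZH_2 IC20, and 8.62 and 8.41 in DZH_2 IC50. It read 11.11 and 10.43 in ethanol, 10.84 and 10.09 in Maraviroc IC20, and 5.61 and 5.69 in Maraviroc IC50. At Maraviroc IC50 a strong signal had thus become one near the negative controls. XRCC2 (Entrez 7516), which works in homologous recombination, read 9.11 and 9.07 in DMSO, 7.04 and 6 in DZH_2 IC20, and 5.84 and 5.71 in DZH_2 IC50. In the Maraviroc series it read 9.10 and 8.27 in ethanol, 8.51 and 8.57 at IC20, and 6.43 and 5.28 at IC50. XRCC2 was the member other than FAM111B whose mean was near the negative controls at DZH_2 IC50.

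In DZH_2 IC20 the 10 differences from DMSO ran from -2.66 ± 0.39 for MCM8 (6.31-fold lower; SE from limma, n = 2 arrays a group) to -1.32 ± 0.47 for GINS1 (2.49-fold lower), with a median of -2.33 against 0 over all 17687 genes. In DZH_2 IC50 they ran from -3.37 ± 0.65 for HELLS (10.3-fold lower), -3.32 ± 0.42 for XRCC2 and -3.24 ± 0.41 for PRIM1 to -1.40 ± 0.47 for GINS1 (2.63-fold lower), with a median of -2.86 against 0.04. In Maraviroc IC50 they ran from -5.12 ± 0.39 for MCM8 (34.9-fold lower) to -2.24 ± 0.44 for FAM111B (4.73-fold lower), with a median of -4.40 against 0.11. DTL, PRIM1 and GINS1 each differed by -4.83 there, and CDC6 by -4.80 ± 0.47. All 10 genes had both treated arrays below both solvent arrays in each of the 3 comparisons, where 22.2%, 23.5% and 25.7% of all genes did for DZH_2 IC20, DZH_2 IC50 and Maraviroc IC50. The genes were chosen for this, so nothing is read from the counts.

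The size of the Maraviroc IC50 differences is limited at the low end of the array's range. If the 75th percentile of the negative controls stands in for the 9 signals beneath it, the differences from ethanol run from -4.33 for MCM8 and -4.24 for DTL to -2.13 for MCM6 and -0.92 for FAM111B. The same replacement gives FAM111B -1.65 at DZH_2 IC20 and -1.81 at DZH_2 IC50, and XRCC2 -3.12 at DZH_2 IC50.

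**Figure D2:**
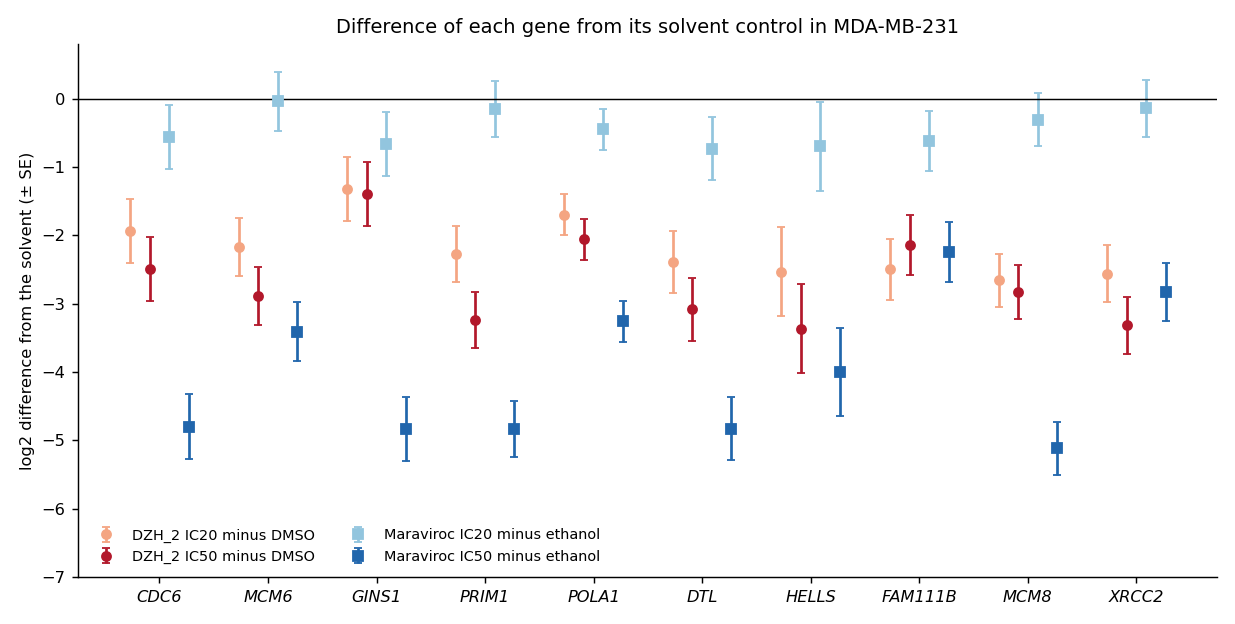
Difference of log2 signal from the solvent for each gene (horizontal axis: gene; vertical axis: log2 difference; bars: ± 1 SE of the limma fit; 2 arrays a group). The DZH_2 points lie between -1.32 and -3.37, the Maraviroc IC20 points between -0.04 and -0.73, and the Maraviroc IC50 points between -2.24 and -5.12.

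Maraviroc IC20 played no part in choosing the genes, although its ethanol arrays did. By limma with Benjamini-Hochberg adjustment over all genes, 0 of the 10 passed at adjusted p under 0.05, 0 had an unadjusted p under 0.05, and the background was 0% lower and 0% higher over 17687 genes (160 lower and 149 higher at unadjusted p under 0.05). All 10 differences were below 0, where 9111 of the 17687 genes were, with a median of -0.51 against -0.01 over all genes. The shared ethanol arrays favour differences below 0 for the chosen genes, so this direction is no independent result. DTL differed most, by -0.73 ± 0.46 (95% interval -1.73 to 0.28, limma, adjusted p = 1), followed by HELLS (-0.70 ± 0.65), GINS1 (-0.66 ± 0.47) and FAM111B (-0.62 ± 0.44). MCM6 differed least, by -0.04 ± 0.43 (95% interval -0.98 to 0.90). CDC6, GINS1, DTL and HELLS had both Maraviroc IC20 arrays below both ethanol arrays, 4 of 10 where 15.2% of all genes did. Without ethanol replicate 1, 6 of the 10 differences stayed below 0, with MCM6, MCM8, PRIM1 and XRCC2 above it. All 10 of the 95% intervals included 0, and their lower ends ran from -2.12 for HELLS to -0.98 for MCM6.

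Between the doses of DZH_2 the 10 genes differed less than from DMSO. The difference of IC50 from IC20 ran from -0.97 ± 0.41 for PRIM1 to 0.36 ± 0.44 for FAM111B, with a median of -0.62. It was below 0 for 9 of the 10, where 8709 of the 17687 genes were. MCM6, POLA1 and XRCC2 had both IC50 arrays below both IC20 arrays, 3 of 10 where 15.4% of all genes did. The median rested on single arrays: it was 0.06 without DZH_2 IC20 replicate 1, -0.21 without DZH_2 IC50 replicate 2 and -1.20 without DZH_2 IC20 replicate 2. Between the doses of Maraviroc the step ran from -4.82 ± 0.39 for MCM8 to -1.63 ± 0.44 for FAM111B, with a median of -3.74 against 0.11 over all genes. The 10 genes were chosen for low signal at Maraviroc IC50, so nothing is read from a step in every gene.

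Between the 2 solvents no gene of the 17687 passed by limma, with 0% lower and 0% higher (712 lower and 640 higher at an unadjusted p under 0.05). For the 10 genes ethanol minus DMSO ran from -0.78 ± 0.43 for MCM6 to 0.77 ± 0.47 for GINS1, with a median of -0.38. It was below 0 for 8 of the 10, where 8710 of the 17687 genes were. The arrays of both solvents served in choosing the genes, so nothing is read from this count. MCM6, PRIM1, DTL and FAM111B were lower in both ethanol arrays than in both DMSO arrays, and GINS1 was higher in both. These are 4 and 1 of 10, where 21% of all genes were lower in both and 21.2% higher in both. Each compound is set against its own solvent here. On that basis, the difference of Maraviroc from DZH_2 at IC50 was largest for GINS1 (-3.43), CDC6 (-2.31) and MCM8 (-2.29), and close to 0 for FAM111B (-0.10) and XRCC2 (0.49), 2 genes whose means were near the negative controls at IC50 of both compounds. At IC20 the difference of Maraviroc from DZH_2 was above 0 for all 10, from 0.66 for GINS1 to 2.42 for XRCC2, and for 8708 of the 17687 genes. At IC50 it was below 0 for 9 and above 0 for XRCC2, where 8548 of the 17687 genes were below 0. The 10 genes were chosen for low signal at DZH_2 IC20 and at IC50 of both compounds, so nothing is read from these directions. The IC20 values go with medians of -2.33 from DMSO for DZH_2 and -0.51 from ethanol for Maraviroc. The 2 compounds share no array, and the concentrations behind the names IC20 and IC50 differ by compound in a way not given here.

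Replicate 1 lay above replicate 2 for all 10 genes in DZH_2 IC20 and for all 10 in DZH_2 IC50, by a median of 1.15 and 0.58. In Maraviroc IC50 it did so for 9 of the 10, by a median of 0.65. The other replication genes showed gaps of 0.70, 0.54 and 0.37 in the same 3 groups, and all genes 0, -0.01 and -0.02. In DMSO, ethanol and Maraviroc IC20 replicate 1 was above for 6, 6 and 3 of the 10. The root mean square SD between the 2 arrays was 0.868 for the 10 genes and 0.366 for all genes in DZH_2 IC20, 0.645 and 0.338 in DZH_2 IC50, 0.601 and 0.546 in Maraviroc IC50, and 0.344 and 0.285 in DMSO. For the 10 genes each DZH_2 group thus held 1 array nearer to DMSO and 1 farther from it. With DZH_2 IC20 replicate 1 left out the median difference from DMSO was -2.95, and with replicate 2 left out -1.71. What separates the arrays within these groups was not tested.

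**Figure D3:**
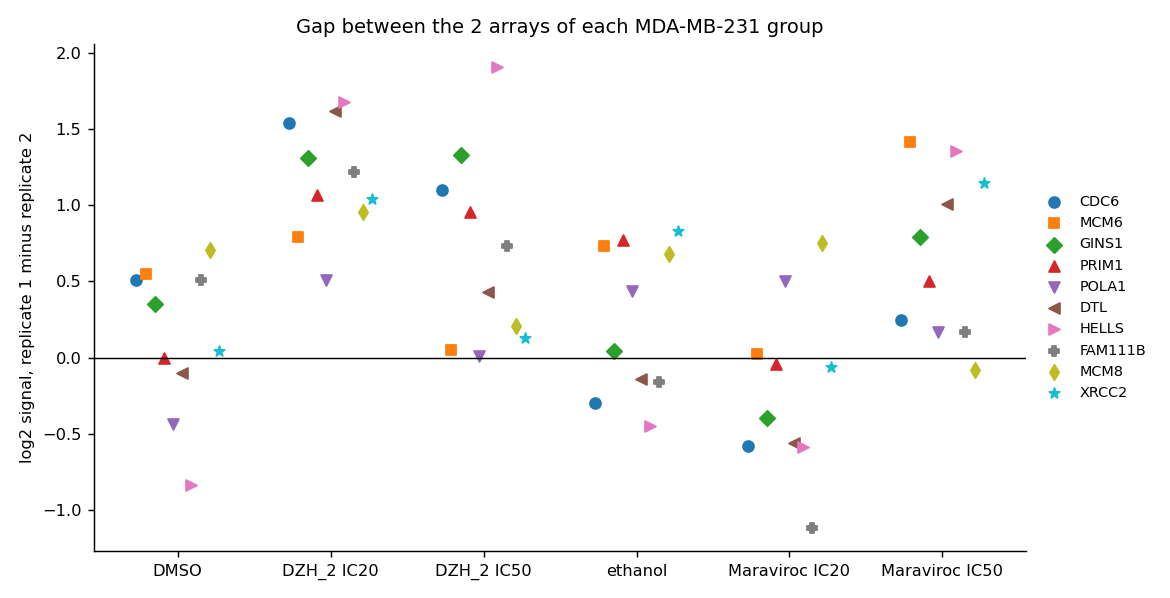
Log2 signal of replicate 1 minus replicate 2 (vertical axis) for the 10 genes in each replicated MDA-MB-231 group (horizontal axis), with 1 symbol for each gene. In both DZH_2 groups all 10 points lie above 0, with medians of 1.15 and 0.58, in Maraviroc IC50 9 of 10 do, with a median of 0.65, and in DMSO, ethanol and Maraviroc IC20 they lie on both sides of it.

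Over the 13 MDA-MB-231 arrays each gene followed the mean of the other 9, with Pearson correlations from 0.889 for FAM111B to 0.993 for DTL. These arrays fall into treated and control groups and the genes were chosen for sharing that difference, so the values describe likeness and carry no test. Without the 2 Maraviroc IC50 arrays the values ran from 0.896 for GINS1 to 0.986 for DTL over 11 arrays. Outside the 10, the genes most like their mean were RFC2, a subunit of the loader of the PCNA clamp (0.987), RBL1, a pocket protein that binds E2F (0.986), and HAT1, an acetyltransferase of new histone H4 (0.986). TTI1 (0.986), CIP2A (0.985), TRA2A (0.984), NCAPG2 (0.981), POLE2 (0.980), KIF11 (0.979) and ZWILCH (0.979) completed the closest 10. Their differences at DZH_2 IC50 ran from -2.47 for RFC2 to -1.03 for TTI1 and ZWILCH.

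Other genes of the replication machinery were tested in the same fit, and most of the calls came at Maraviroc IC50. Of 88 listed by role, 84 were measured, and 0 of them rose by limma in DZH_2 IC20, DZH_2 IC50 or Maraviroc IC50, with 0, 0 and 1 (ATR) higher at an unadjusted p under 0.05. Differences were above 0 for 7, 6 and 9 of the 84. In DZH_2 IC20, 8 of 84 fell, with a median of -1.05 and a background of 0.435% of all genes lower and 0.435% higher. In DZH_2 IC50, 15 of 84 fell, with a median of -1.27 and a background of 0.984% lower and 0.582% higher, and the 15 included all 8 of the lower dose. In Maraviroc IC50, 60 of 84 fell, with a median of -1.97 and a background of 15% lower and 12% higher, and 32 of the 60 had a mean near the negative controls. The split of all called genes moved with the scaling: the lower share was 62.8% at DZH_2 IC50 and 49.2% after quantile normalization, and 55.6% at Maraviroc IC50 and 43.3% with each array centred on its median. Calls under DZH_2 depended on single arrays. At IC20 the count was 0 without DMSO replicate 1, without DMSO replicate 2 or without DZH_2 IC20 replicate 2, and 14 without DZH_2 IC20 replicate 1. At IC50 it was 2 without DZH_2 IC50 replicate 1 and 0 without replicate 2 or either DMSO array.

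Licensing genes were closest in kind to CDC6 and MCM6. Of the other 5 subunits of the MCM ring, MCM3, MCM4 and MCM5 fell at DZH_2 IC50 by limma (-2.44 ± 0.54, -2.39 ± 0.46 and -2.42 ± 0.52, adjusted p = 0.0457, 0.0284 and 0.0427). MCM2 and MCM7 differed by -1.67 ± 0.51 and -1.18 ± 0.44 without passing. All 5 fell at Maraviroc IC50, from -4.37 ± 0.51 for MCM2 (limma, adjusted p = 5.96e-05) to -2.37 ± 0.54 for MCM3. CDT1, the partner of CDC6 in loading, fell at Maraviroc IC50 by -3.43 ± 0.41, and 11 of 14 licensing genes fell in all. ORC2, a subunit of the origin recognition complex, did not pass there, with a difference of 0.07 from ethanol.

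Among the genes that turn the loaded ring into a helicase, CDC45 fell in all 3 comparisons, by -1.92 ± 0.37 and -2.21 ± 0.37 at the DZH_2 doses and -3.40 ± 0.37 at Maraviroc IC50 (limma, adjusted p = 0.036, 0.0164 and 3.78e-05). GINS2, GINS3 and GINS4, the other subunits of the complex of GINS1, fell at Maraviroc IC50, by -2.30 ± 0.67, -1.96 ± 0.35 and -1.25 ± 0.40. At DZH_2 IC50 they differed by -1.79, -1.09 and -0.98 without passing. MCM10 and MTBP, which help to start the helicase, fell at DZH_2 IC50 by -1.52 ± 0.35 and -2.25 ± 0.46. Of the 12 genes of this list 11 fell at Maraviroc IC50.

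PRIM2, the partner of PRIM1 in primase, fell by -1.32 ± 0.27 at DZH_2 IC20, -1.73 ± 0.27 at DZH_2 IC50 and -2.18 ± 0.27 at Maraviroc IC50 (limma, adjusted p = 0.0443, 0.0127 and 9.48e-05). Of the 11 polymerase and primase genes 5 fell at Maraviroc IC50, with a median of -0.90. POLE2 and POLD3, accessory subunits of polymerases epsilon and delta, fell by -3.34 ± 0.51 and -3.25 ± 0.47. On the lagging strand, RFC2, RFC3 and RFC4 of the clamp loader all fell at DZH_2 IC20, by -2.26 ± 0.40, -1.91 ± 0.35 and -1.85 ± 0.33. At Maraviroc IC50 14 of the 19 clamp and lagging strand genes fell. RFC2 had the largest difference there (-4.02 ± 0.40) and RFC3 (-3.99 ± 0.35) the smallest p.

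Of 7 fork protection and checkpoint genes, 2 fell at DZH_2 IC20, 3 at DZH_2 IC50 and 6 at Maraviroc IC50. CHEK1, the kinase of the replication checkpoint, fell by -2.21 ± 0.36 and -1.82 ± 0.36 at the DZH_2 doses and by -2.36 ± 0.36 at Maraviroc IC50, and CLSPN, its adaptor, fell by -2.36 ± 0.48 and -2.28 ± 0.48 at the DZH_2 doses. ATR, the kinase upstream of CHEK1, differed by 0.78 ± 0.30 at Maraviroc IC50 without passing (limma, adjusted p = 0.0767, unadjusted p = 0.0236), with a mean near the negative controls. FAM111A, the relative of FAM111B, fell at Maraviroc IC50 by -3.66 ± 0.51 and differed at DZH_2 IC50 by -2.04 ± 0.51 (limma, adjusted p = 0.0686). The ligase genes that DTL works with gave smaller differences. CUL4A, DDB1 and RBX1 differed from solvent by between -0.36 and 0.28 in the 3 comparisons, and CUL4B fell at Maraviroc IC50 by -1.41 ± 0.38 (limma, adjusted p = 0.0144).

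Of 8 genes that maintain chromatin at the fork beside HELLS, 0 passed at either DZH_2 dose by limma, although 6 and 7 were lower at an unadjusted p under 0.05, where 6.32% and 8.38% of all genes were, and 7 fell at Maraviroc IC50. CHAF1B and CHAF1A of the histone chaperone CAF-1 fell there by -4.18 ± 0.61 and -3.08 ± 0.39, and UHRF1, which guides maintenance methylation, by -3.55 ± 0.56. CDCA7, the partner of HELLS, fell by -1.69 ± 0.34 and stood near the negative controls. Among 9 measured recombination genes 0 passed at the DZH_2 doses by limma (4 and 5 lower at unadjusted p under 0.05), and 5 fell at Maraviroc IC50, among them RAD51C by -2.79 ± 0.44. MCM9, the partner of MCM8, differed by 0.35, 0.03 and 0.25 in DZH_2 IC20, DZH_2 IC50 and Maraviroc IC50, where MCM8 differed by -2.66, -2.83 and -5.12. HROB, which loads the MCM8 and MCM9 helicase, differed by -0.26, 0.37 and 0.21, and RAD51D, a partner of XRCC2, by -0.36, -0.80 and 0.07.

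**Figure D4:**
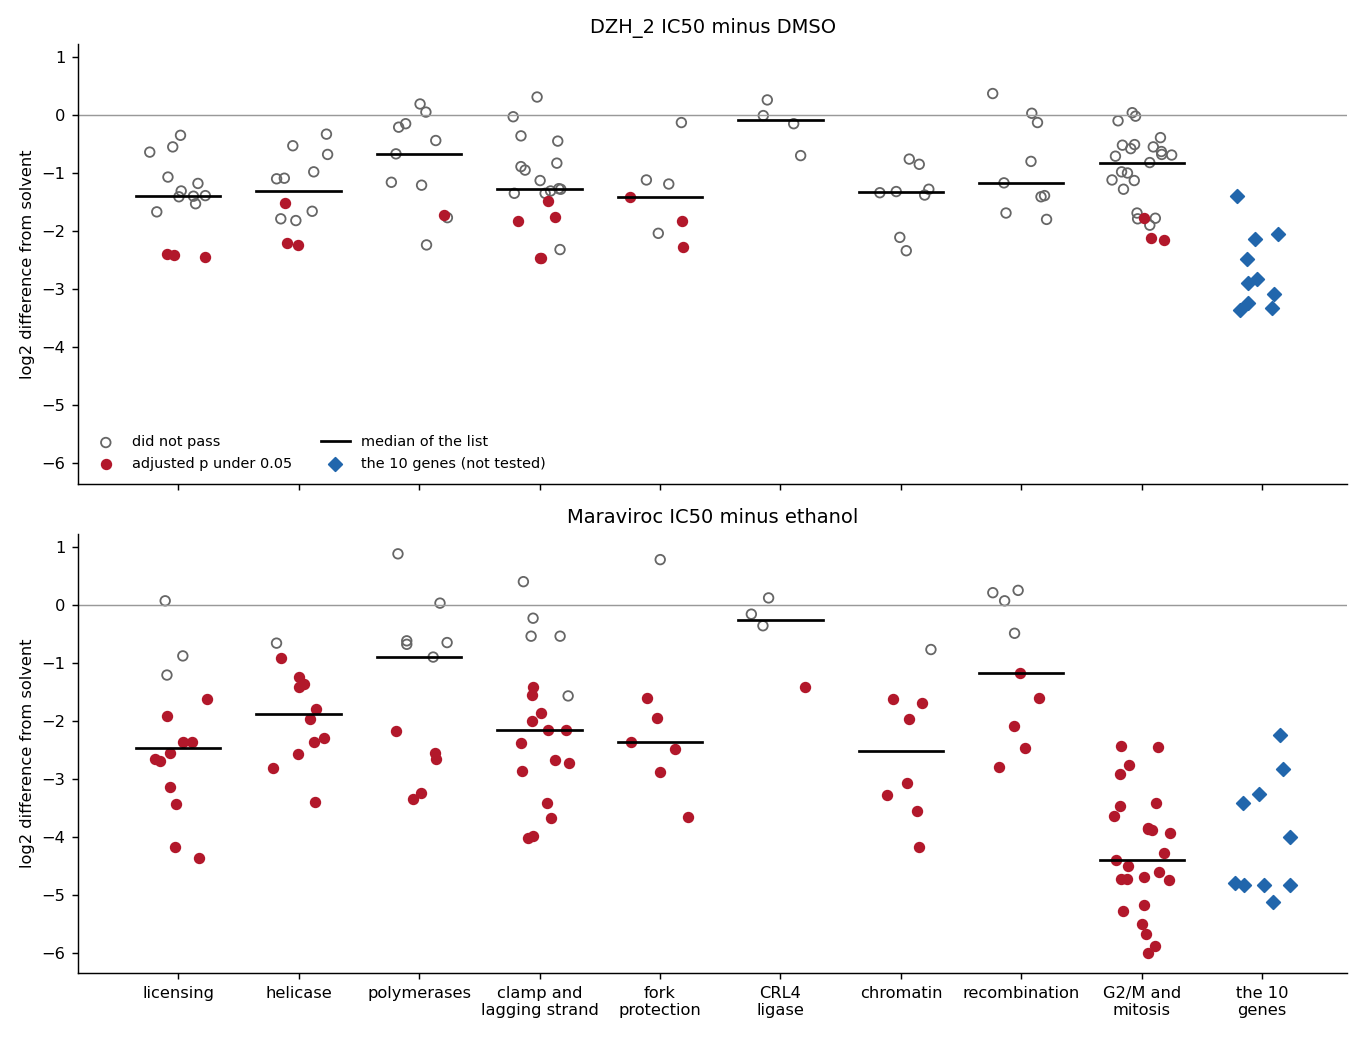
Log2 difference from solvent (vertical axis) of the other replication genes by role, of the genes of G2/M and mitosis, and of the 10 genes (horizontal axis), for DZH_2 IC50 (upper panel) and Maraviroc IC50 (lower panel): filled circles passed the adjusted threshold, open circles did not, bars are list medians and diamonds the 10 genes, which were not tested. The median of G2/M and mitosis is -0.82 under DZH_2 IC50 and -4.40 under Maraviroc IC50.

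Of the remaining comparisons, the 1 between the Maraviroc doses held most of the calls among the 84. At Maraviroc IC20 0 fell and 0 rose by limma, with MCM10 alone at an unadjusted p under 0.05 (-0.98 ± 0.35). Between the DZH_2 doses 0 of 84 passed by limma and 0 had an unadjusted p under 0.05, with a background of 0% each way (264 genes lower and 457 higher at unadjusted p under 0.05). Between the Maraviroc doses 60 fell, against a background of 14.8% lower and 11.9% higher (a lower share of 55.3%, and 43.5% with each array centred on its median). Ethanol minus DMSO gave 0 by limma, with a background of 0% each way. At an unadjusted p under 0.05, 4 of 84 were lower and 2 higher, where 4.03% and 3.62% of all genes were. The difference between compounds at IC50 passed for MCM2 (-2.70 ± 0.71), MCMBP (-2.11 ± 0.47), RFC3 (-2.24 ± 0.50) and RNASEH2B (-1.84 ± 0.44), 4 of 84 where 4.02% of all genes were lower and 2.15% higher under Maraviroc (a lower share of 65.2%, and 54% with each array centred on its median). That count was 0 without ethanol replicate 1 or 2, DZH_2 IC50 replicate 1 or DMSO replicate 1 or 2, and 16 without Maraviroc IC50 replicate 1. At IC20 0 passed by limma, with a background of 0% each way. At an unadjusted p under 0.05, 28 of 84 were higher under Maraviroc than under DZH_2, where 3.82% of all genes were.

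Genes of the later cell cycle gave larger differences between the compounds. All 25 genes of G2/M and mitosis fell at Maraviroc IC50 (median -4.40), and 12 of the 25 stood near the negative controls. The 3 with the smallest p were FOXM1, TPX2 and CCNB2, with differences of -6.01 ± 0.45, -5.88 ± 0.32 and -4.72 ± 0.35. MKI67 (-5.67) and PLK1 (-5.51) were among the genes that fell by more than CCNB2. At DZH_2 IC20 and IC50 3 of 25 fell (medians -1.06 and -0.82): TPX2, MKI67 and NDC80. The difference between compounds at IC50 passed for 18 of these 25, with a median of -3.18, and for 4 of the 84 replication genes, with a median of -0.54. Of 24 genes of G1/S control, RBL1 was the 1 gene that fell at both DZH_2 doses (-2.17 ± 0.33 and -2.41 ± 0.33). At Maraviroc IC50 15 fell and 1 rose, CDKN1A, the inhibitor p21 of cyclin-dependent kinases (4.89 ± 0.57, limma, adjusted p = 6.25e-05). CDKN1A differed by 2.31 ± 0.57 and 2.17 ± 0.57 at the DZH_2 doses without passing (limma, adjusted p = 0.0901 and 0.0802).

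The arrays titled MCF10 held little signal for most of the 10 genes. Their cell line field reads MDA-MB-231, but several markers differed from those of the MDA-MB-231 arrays, and the markers did not settle which line this is. KRT5, S100A2, TRIM29 and ITGB4 were above the negative controls, and the epithelial genes CDH1, EPCAM, ESRP1, CLDN1 and KRT14 were near them. Of 7 stromal genes, 6 were above the negative controls, whereas in the DMSO and untreated MDA-MB-231 arrays 6 were near them. DCN, FBLN1, MMP2 and SPARC had log2 signals of 10.45 to 13.79 (4.72 to 5.54 in those MDA-MB-231 arrays). COL1A2 had 8.49 (8.62 there), COL1A1 had 6.18 (5.52 there), and LUM, with 4.74 (4.14 there), was near the negative controls. Of 6 mesenchymal markers, 6 were above the negative controls in the MDA-MB-231 arrays and 5, all but AKAP12, in the arrays titled MCF10. With 1 array a condition the MCF10 values have no replicate and no test. DTL was the only one of the 10 above the negative controls in all 4 arrays, and MCM6, POLA1 and FAM111B were near them in all 4. The mean of the DMSO and untreated arrays was lower than that of the same MDA-MB-231 arrays for every gene, from -2.04 for GINS1 to -5.97 for MCM8. The choice of genes used the MDA-MB-231 DMSO arrays and favoured high signal there, so nothing is read from this direction. The 2 control arrays titled MCF10 also had lower medians over all genes (6.64 and 6.65) than these MDA-MB-231 arrays (7.04 to 7.08).

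DTL read 7.88 in the untreated and 8.64 in the DMSO array titled MCF10, and 7.14 and 7.36 at DZH_2 IC20 and IC50, both lower than either control. GINS1 read 8.06 and 7.18 in the controls. It read 5.15 and 5.58 at the 2 doses, both near the negative controls, which is -2.03 and -1.59 from DMSO. Its difference was the largest of the 10 at IC20, and that of MCM8 (-1.83) was the largest at IC50. MCM8 read 6.31 in DMSO and 4.69 and 4.48 at the doses, and its untreated array read 4.53. MCM8 is thus lower than DMSO and level with the untreated array, and its untreated and treated arrays are all near the negative controls. These 3 genes, 3 of 10, were at least 1 below DMSO at both doses, where 4.88% of all genes were. Of the 3, DTL alone stood above the negative controls at both doses, so the size of the other differences is limited. Against the untreated array the genes were GINS1 and PRIM1, both near the negative controls at both doses. HELLS (6.78 in DMSO, 6.67 and 5.81 at the doses), CDC6 (7 in DMSO, then 6.87 and 5.95) and XRCC2 (6.28, then 6.24 and 5.59) were within 0.13 of DMSO at IC20. Of the 84 other replication genes, 11 were at least 1 lower and 2 at least 1 higher than DMSO at both doses.

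**Figure D5:**
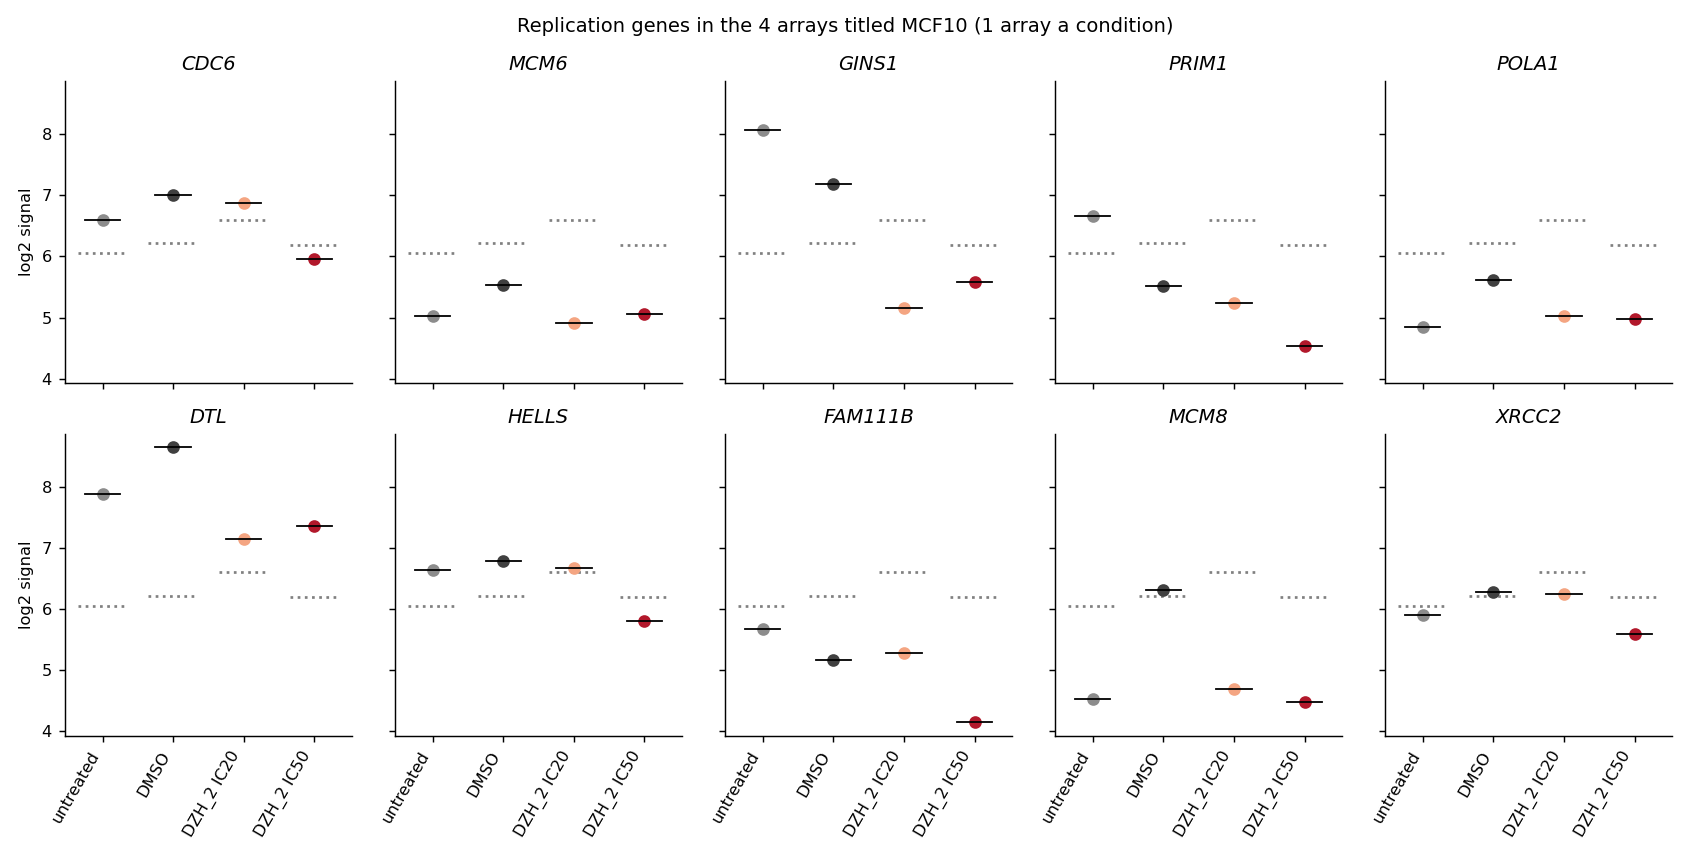
Log2 signal of the 10 genes (vertical axis) in the 4 arrays titled MCF10 (horizontal axis: condition; circles with a black line through them are single arrays), with dotted lines at the 75th percentile over negative controls. DTL lies above the dotted lines in all 4 arrays, and MCM6, POLA1 and FAM111B lie below them in all 4.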

How the data were processed

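Total RNA was labelled with the GeneChip WT PLUS kit and hybridised to Affymetrix arrays, per the labels' protocols. Deposited log2 signals covered 24351 probe sets on 17 arrays and were used unchanged. How the authors summarised and normalized them is not stated in these sources. Of the probe sets, 17709 carried 1 gene, 2903 were controls and 3739 had no gene listed; the brightest on average was kept for 20 genes with several, which left 17687 genes. Groups came from the sample titles. With no counting depth, precision is set by how many arrays there are.

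One limma 3.58.1 fit took in all 6 MDA-MB-231 groups with 2 arrays, 12 arrays in all (R 4.3.3; lmFit, contrasts.fit, eBayes), with 6 residual degrees of freedom, no replicate block and no filter on low signal. P-values were 2-sided and adjusted by Benjamini-Hochberg over all genes, with a threshold of 0.05. The fit was tested on simulated data with noise drawn separately for each gene and array. Replicate gaps shared by many genes, as in the DZH_2 groups, were thus not covered. The members, the gene lists and the tests were chosen with earlier results of these data known. From each list up to 3 genes with the smallest p in a comparison may be named, with close relatives of the members, genes that moved against their list, and counts of 5 or fewer; other names (such as ORC2, CDCA7, CUL4A, HROB and RAD51D) were chosen after their values were seen. Alternatives were quantile normalization, median centring, leaving out dim genes, array weights, other sets of arrays and controls, a replicate block and leaving out each array.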

Additional observations from a re-analysis of the deposited data

Results flagged for a closer look

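FAM111B differed between the 2 sets of arrays in direction under DZH_2 at IC20. In the array titled MCF10 it was 0.12 higher than in DMSO (5.28 against 5.16), and in both MDA-MB-231 arrays it was lower than in both DMSO arrays. The difference was not tested, since the arrays titled MCF10 have no replicate. FAM111B was near the negative controls in all 4 of them.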

How the results depend on the processing

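The 10 genes stayed below their solvent in all 140 values of DZH_2 IC20 over 14 alternatives. They did so in all 140 of DZH_2 IC50 and in all 130 of Maraviroc IC50 over 13. The genes were chosen for being lower there, and both treated arrays lay below both solvent arrays in each comparison. Leaving out 1 array could thus not change a sign, and nothing is read from these counts. Counts of the 84 other replication genes called lower moved with the setting. For DZH_2 IC20 the 8 became 30 with array weights, 14 with only the arrays compared, 25 without the Maraviroc IC50 arrays, 32 with all 5 control arrays and 14 with the replicate block, and from 0 to 14 with 1 replicate left out. For DZH_2 IC50 the 15 became 41, 39, 34 and 38 under the first 4 of these, and from 0 to 2 with 1 replicate left out. All 8 and all 15 were among the calls with array weights and without the Maraviroc IC50 arrays, and with only the arrays compared 6 of the 8 and all 15 were. For the compounds at IC50 the 4 became 0 to 16 with 1 replicate left out. The cause was not tested. With 1 replicate left out, the median of the 10 genes ran from -4.80 to -3.83 for Maraviroc IC50, from -4.22 to -3.16 between the Maraviroc doses and from 1.13 to 2.51 between the compounds at IC20. At Maraviroc IC20, with 1 replicate left out, MCM6 ran from -0.40 to 0.33, MCM8 from -0.68 to 0.07, PRIM1 from -0.53 to 0.23 and XRCC2 from -0.56 to 0.27. The values above 0 came without ethanol replicate 1 (MCM6, MCM8 at 0.04, PRIM1 and XRCC2) or without Maraviroc IC20 replicate 2 (MCM8 at 0.07). In the arrays titled MCF10, MCM8 at IC20 was 0.15 above the untreated array.

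The replicate numbers were not used to pair arrays in the main fit. Over all genes, the replicate differences of 2 compared groups correlated from -0.0796 for ethanol and DMSO to 0.301 for the DZH_2 doses. The value was 0.251 for Maraviroc IC20 and ethanol, and whether these arrays were paired was not tested. Median centring moved the median of all genes at Maraviroc IC50 from 0.11 to 0.28. Signals near the negative controls limit the size of the falls at Maraviroc IC50, and 2 arrays a group limit every test.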
